A study of Mus musculus with 16 samples.

Results

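The transcripts described here were already detectable in the uninjured heart and rose after ischemia/reperfusion (I/R) in both genotypes. They are 187 probes of the 25697 on an Illumina bead array (0.728%). Each had a mean deposited intensity between 230 and 3500 over the 8 sham arrays, and a median over the I/R arrays at least 1.6 times the median over the sham arrays of the same genotype. Of all probes, 6184 lay in this intensity window, and the 187 were 3.02% of those. The probes were chosen by their I/R and sham intensities, so their rise is given as a description and is not tested. They carry Illumina IDs only, and no gene name or function is given, since no table used here ties an ID to a gene.

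The arrays measured cardiac tissue of C57BL/6J mice, 1 array per mouse, in 4 groups of 4. The TG_IR mice overexpressed AKIP1 and had I/R injury. The WT_IR mice were wild-type littermates with the same injury. The TG_Sham mice overexpressed AKIP1 and had the sham operation, and the WT_Sham mice were wild-type littermates with the sham operation. The design sets AKIP1 overexpression against wild type with and without injury. The sources used here do not give the promoter that drives the transgene, the age of the mice, the time of tissue collection or the region of heart taken. The tissue could not be checked against cell type markers, because no probe is tied to a gene.

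In ischemia/reperfusion, blood flow to heart muscle is interrupted and then restored. Cardiomyocytes die or are stressed, leukocytes enter the tissue, and fibroblasts and endothelial cells are activated and begin repair. A transcript that resting heart already holds can rise because resident cells make more of it, or because cells that carry it enter or multiply. In RNA from whole tissue, more cells of a type and more RNA per cell cannot be told apart. AKIP1 is a small protein that binds the catalytic subunit of protein kinase A.

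The deposited array medians lay between 178.8 and 178.9, and the lowest intensity was 162. An intensity of 230 is therefore not far above the bulk of dim probes, and "detectable" rests on this bound alone, since the table holds no detection p-values. The arrays are grouped here into 2 slides of 8, in the order of the sample numbers. Each slide then held 2 arrays of every group. Slide follows the order of the numbers in the sample titles, so slide and sample order cannot be told apart. The array labelled WT_IR replicate 2 stood apart from the other I/R arrays, as the values below show, and results that rest on it are given with and without it.

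In transgenic hearts, the ratio of the I/R median to the sham median had a median of 2.03 over the 187 probes. The middle of the distribution (quartiles) ran from 1.79 to 2.58, and the extremes from 1.603 to 16.2. In wild-type hearts the median ratio was 1.92, with quartiles of 1.73 and 2.40 and extremes of 1.611 and 7.69. Most probes thus rose by a small factor, and a short tail rose by a large one. Without WT_IR replicate 2, the wild-type median was 2.16, with quartiles of 1.92 and 2.63 and a highest ratio of 11.6. In TG hearts 89 probes stayed under a ratio of 2, 68 lay from 2 to under 3, 17 from 3 to under 5, and 13 at 5 or more. In WT hearts these counts were 107, 53, 16 and 11, and without WT_IR replicate 2 they were 66, 84, 21 and 16. Leaving out that array thus thinned the lowest class in WT. A ratio of at least 2 was reached in both genotypes by 73 probes, of at least 3 by 23 and of at least 5 by 9. These counts were 88, 26 and 12 when WT_IR replicate 2 was left out.

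ILMN_2952275 had the largest rise when each probe is judged by the genotype in which it rose less. Its intensities were 3145, 2082, 3222 and 3357 in TG_IR hearts (replicates in order), against 265, 344, 293 and 233 in TG_Sham hearts. They were 4411, 269.9, 5382 and 1432 in WT_IR hearts, against 615, 259, 249 and 501 in WT_Sham hearts. All TG_IR arrays lay above all TG_Sham arrays, whereas in wild type replicate 2 of WT_IR lay among the sham arrays. The ratio of medians was 11.4 in TG and 7.69 in WT, and 11.6 in WT without that array.

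ILMN_2710905 was next. Its intensities were 7819.7, 3392, 7830.3 and 8057 in TG_IR hearts, against 416, 788, 516 and 451 in TG_Sham hearts. They were 6566, 487, 9852 and 3081 in WT_IR hearts, against 725, 604, 410.1 and 675 in WT_Sham hearts. The 4 TG_IR arrays were again clear of their sham arrays, and 3 of the 4 WT_IR arrays were. The ratio was 16.2 in TG and 7.54 in WT, or 10.3 in WT without replicate 2. On TG_IR replicate 2 both probes were well below the other TG_IR arrays.

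The size of the rise depended on the scale for dim probes. Of the 2077 window probes with a sham mean from 230 to 300, 29 (1.396%) were among the raised probes. The share was 3.23% (66 of 2042) from 300 to 500, 4.19% (54 of 1289) from 500 to 1000, and 4.90% (38 of 776) from 1000 to 3500. The median ratio hardly moved over these bins, at 1.89, 2.07, 1.94 and 2.16 in TG and 1.75, 1.98, 1.88 and 1.96 in WT. When the array median was first subtracted as a background, it was 4.32, 2.95, 2.35 and 2.33 in TG and 3.65, 2.76, 2.26 and 2.11 in WT. Without WT_IR replicate 2, these subtracted values were 4.71, 3.34, 2.49 and 2.42 in WT, so whether TG or WT was the larger turned with that array. The bound of 1.6 on uncorrected intensities by itself asks a larger ratio above background of a dim probe, so nothing is read from this order. Intensity also depends on the probe, so these bins give no order of abundance.

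The 2 raised probes with the highest sham intensity rose by small factors, near the bound of 1.6. Their ratios were 1.62 in TG and 1.66 in WT for ILMN_2970473, and 1.71 and 1.63 for ILMN_2874228. Other bright probes rose more. Among the 38 with a sham mean from 1000 to 3500, the highest ratio was 6.91 in TG and 5.33 in WT. ILMN_2970473 had 5604, 4421, 5128 and 4668 in TG_IR hearts, against 3035, 3237, 2899.8 and 3008 in TG_Sham hearts. In WT_IR hearts it had 5354, 3075, 6018 and 4784, against 3027, 2931, 3106 and 3088 in WT_Sham hearts. Its TG_Sham and WT_Sham arrays lay within a narrow band, and every I/R array other than WT_IR replicate 2 was above it. ILMN_2874228 behaved alike, at 5016 ± 191 in TG_IR and 2883 ± 60.0 in TG_Sham hearts, and at 4386 ± 1091 in WT_IR and 2913 ± 179 in WT_Sham hearts (intensity, mean ± SD, n = 4 each). The wide spread of WT_IR came from replicate 2, at 2853.

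Many of the 187 lay close to the bound on the ratio, with 43 under 1.7 in the genotype that rose less. Just inside it were ILMN_2663130, with ratios of 1.603 in TG and 1.616 in WT, and ILMN_2863965, with 1.605 and 1.62 (TG and WT). Just outside were ILMN_3162407, with 1.598 in TG and 1.697 in WT, and ILMN_2837543, with 1.657 in TG and 1.594 in WT. At the lower bound on intensity, the nearest probes inside had sham means of 230.7 and 230.8, and the nearest outside that met both ratios had 229.5 and 228.2. At the upper bound, the nearest inside had 3042 and 2898, and the nearest outside had 3679.7 and 3776. Both ratios were also met by 46 probes at or under the lower bound and by 10 at or above the upper bound, which are not included.

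The rise was seen on 7 of the 8 I/R arrays. The mean over the 187 probes of the log2 intensity above the sham mean was 1.34, 1.18, 1.25 and 1.06 on TG_IR replicates 1 to 4. It was 1.45, 0.011, 1.41 and 0.94 on WT_IR replicates 1 to 4. On the sham arrays it was 0.023, 0.10, −0.028 and −0.10 in TG_Sham and 0.096, −0.0068, −0.16 and 0.075 in WT_Sham. The sham arrays and WT_IR replicate 2 thus stayed near 0, and the other 7 I/R arrays were all well above it. The group values were 1.21 ± 0.12 in TG_IR and −0.0010 ± 0.087 in TG_Sham, and 0.95 ± 0.67 in WT_IR and 0.0010 ± 0.12 in WT_Sham (log2, SD, n = 4 each). WT_IR without replicate 2 stood at 1.27 ± 0.29 (SD, n = 3). The spread of WT_IR was thus mostly that of 1 array. Over the other 5997 probes of the window the median shift was between −0.079 and −0.041 log2 on the same 7 I/R arrays. On each of these 7 arrays, the 5th to 95th percentile of the 187 probes reached from between 0.49 and 0.84 to between 2.11 and 2.86 log2 above sham, and on WT_IR replicate 2 from −0.25 to 0.29. Since the array medians were nearly equal, every level is taken as relative to the rest of its array.

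On single arrays, 180, 165, 180 and 147 of the 187 probes reached 1.6 times the TG_Sham median on TG_IR replicates 1 to 4. On WT_IR replicates 1, 3 and 4, 187, 186 and 124 reached 1.6 times the WT_Sham median, and on WT_IR replicate 2 only 4 did. That array was the lowest of the 8 I/R arrays for 186 of the 187 probes. Its level was within the range of the 8 sham arrays for 167 probes, above it for 12 and below it for 8, with a median of 0.979 times the WT_Sham median. For most of these probes this heart thus had a sham level. WT_IR replicate 4 was the lowest of the other 7 for 110 probes, TG_IR replicate 4 for 34 and TG_IR replicate 2 for 30. The largest excess on WT_IR replicate 2 was that of ILMN_2759365, singled out after its values were seen, at 936 against 281 to 354 in WT_Sham hearts. ILMN_2713285 was also above all 8 sham arrays there, at 2613 against 1256 to 1699 in WT_Sham hearts.

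The 4 TG_IR arrays lay above all 4 TG_Sham arrays for 184 of the 187 probes, where this held for 9.77% of all probes. WT_IR arrays lay above all WT_Sham arrays for 25 (3.51% of all probes), and for 185 without replicate 2 (11.6% of all probes). All 7 I/R arrays other than that one were above all 8 sham arrays for 179 probes (5.96% of all probes), and all 8 I/R arrays were for 12 (0.638% of all probes). The same arrays chose the probes, so nothing is read from these shares. In limma's fit over all 25697 probes, the median log2 difference of the raised probes after background correction was 1.27 between TG_IR and TG_Sham and 0.997 between WT_IR and WT_Sham. It was 1.33 in WT without replicate 2.

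The rises in TG and WT hearts were alike in size for most probes. The TG and WT ratios lay within 1.2-fold of each other for 155 of the 187 probes, and for 144 without WT_IR replicate 2. Across the probes, log2 ratios in TG and WT correlated with Pearson's r = 0.919 and Spearman's rho = 0.808 (0.916 and 0.787 without that array). The genotypes share no array, but probes are not independent replicates, and the bound of 1.6 in both genotypes favours likeness. Which genotype rose more depended on WT_IR replicate 2. The TG ratio was the larger for 114 probes and the WT ratio for 73, with a median log2 difference between the ratios (TG minus WT) of 0.042. When it was left out, the TG ratio was the larger for 52 and the WT ratio for 135, with a median of −0.11.

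The window held 53 probes that met the ratio of 1.6 in TG and not in WT, and 14 that met it in WT and not in TG. The WT ratio of the 53 ran from 1.17 to 1.59 with a median of 1.46, so that most fell short by little. The TG ratio of the 14 ran from 1.29 to 1.598 with a median of 1.53. Without WT_IR replicate 2, 23 of the 53 also met the ratio in WT, and the counts were 210 in both genotypes, 30 in TG alone and 62 in WT alone.

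A ratio over 1.5 times larger in TG was found for 4 probes and over 1.5 times larger in WT for 1. Without WT_IR replicate 2 these counts were 2 and 1. ILMN_2712075 leaned most to TG. It had 2561, 5273, 3171 and 5719.6 in TG_IR hearts, against 933, 1019, 1435 and 683 in TG_Sham hearts. It had 2249, 1317, 3237 and 2266 in WT_IR hearts, against 1896, 806, 1013 and 1784 in WT_Sham hearts. TG_IR replicates 2 and 4 were the highest, and the sham arrays of both genotypes were spread widely. The ratio was 4.33 in TG and 1.61 in WT, and 1.62 in WT without replicate 2. ILMN_2710905 was next, as described above.

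ILMN_2706269 leaned most to WT. It had 3887, 3305, 4263 and 4063 in TG_IR hearts, against 2003, 2019, 1027 and 1081 in TG_Sham hearts. It had 6683, 1692, 4536 and 3812 in WT_IR hearts, against 1237, 1105, 1001 and 838 in WT_Sham hearts. The TG_Sham arrays split by slide, replicates 1 and 2 (slide 1) lying above every WT_Sham array and replicates 3 and 4 (slide 2) among them. The ratio was 2.58 in TG and 3.96 in WT. ILMN_2713285, next in this direction, had ratios of 4.00 in TG and 5.33 in WT. All 4 of its TG_IR arrays (5863 to 7198) lay below WT_IR replicates 1, 3 and 4 (10306, 7657 and 7881) and above replicate 2.

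The difference between TG and WT did not choose the probes and could be tested, although the shared bound limits what such a test can find. After I/R, limma called 0 of the 187 probes between TG_IR and WT_IR (0.00% of all probes), and 8 had an unadjusted p under 0.05 (4.28%, against 4.92% of all probes). The fitted log2 difference was above 0 for 183 of the 187, with a median of 0.26. Without WT_IR replicate 2 it was above 0 for 58, with a median of −0.073, and 0 were called (0.00389% of all probes as higher and 0.00% as lower), with 3 at an unadjusted p under 0.05 (1.604%, against 4.14% of all probes). Leaving out WT_IR replicates 1 or 3 moved the count the other way. It was 44 without WT_IR replicate 1 (23.5%, against 7.30% of all probes; median 0.47) and 39 without WT_IR replicate 3 (20.9%, against 7.74% of all probes; median 0.45), with 0 called by limma in either. The count was 3 without WT_IR replicate 4 (1.604%, against 4.09% of all probes). It was 1 without TG_IR replicate 2 (0.535%, against 4.11% of all probes). The direction of the whole group thus turned with WT_IR replicate 2. Within slide 1, which carries that array, the median was 0.58, and within slide 2 it was −0.026 (2 arrays per group each). None of the 187 had all TG_IR arrays above, or all below, the 4 WT_IR arrays (1.22% and 1.34% of all probes). Without WT_IR replicate 2, 0 had all above (2.60% of all probes) and 1, ILMN_2713285, had all below (2.45% of all probes).

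The smallest p in favour of TG_IR was that of ILMN_1224635. It had 529, 1075, 578 and 494 in TG_IR hearts, against 496, 256, 466 and 427 in WT_IR hearts. TG_IR replicates 1, 2 and 3 lay above every WT_IR array, with replicate 2 the highest. TG_IR replicate 4 lay just under WT_IR replicate 1. The sham arrays had 228 to 253 in TG_Sham and 255 to 284 in WT_Sham. The log2 difference was 0.90 (SE 0.29, limma unadjusted p = 0.00795, adjusted p = 0.955), and 0.57 (SE 0.22, limma unadjusted p = 0.0234) without WT_IR replicate 2. ILMN_2712075 followed with 0.91 (SE 0.37, limma adjusted p = 0.955), and 0.66 without that array. Below 0 the smallest p was that of ILMN_2759365, at 938 ± 207 in TG_IR and 1331 ± 579 in WT_IR hearts (SD, n = 4 each), a log2 difference of −0.50 (SE 0.34, limma adjusted p = 0.961), and −0.65 without WT_IR replicate 2. The next below 0, ILMN_1227951, had a difference of −0.0083 (−0.20 without that array), since only 4 of the 187 lay below 0.

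After sham, limma called 0 of the 187 between TG_Sham and WT_Sham (0.00389% of all probes as higher and 0.0117% as lower), and 2 had an unadjusted p under 0.05 (1.07%, against 5.97% of all probes). The count was 10 without WT_IR replicate 2 (5.35%, against 6.84% of all probes) and 22 when the sham groups were fitted alone (11.8%, against 7.33% of all probes), with 0 called by limma in both. The log2 difference was above 0 for 89 of the 187, with a median of −0.0086. The directions were thus split nearly evenly. All TG_Sham arrays lay above all WT_Sham arrays for 1 of the 187, ILMN_2653617 (2.12% of all probes), and below them for 1, ILMN_1224635 (1.72% of all probes), the first named after its values were seen. The 2 probes with the smallest p, ILMN_2619848 and ILMN_2860804, moved almost as a pair. ILMN_2619848 had 593, 345, 397 and 421 in TG_Sham hearts, against 305, 314, 249.5 and 373 in WT_Sham hearts, and ILMN_2860804 had 569, 349, 411 and 428, against 314, 315, 252 and 389. Replicate 1 of TG_Sham was the highest for both and replicate 2 overlapped WT_Sham. Their log2 differences were 0.71 (SE 0.33) and 0.68 (SE 0.32), each with a limma adjusted p of 0.834. On the other side, ILMN_3135781 had −0.30 and ILMN_2621643 −0.31 (limma adjusted p = 0.931 and 0.944).

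The difference of the rise between genotypes (the interaction) passed for 0 of the 187 probes in limma's test (0.00% of all probes), with 2 at an unadjusted p under 0.05 (1.07%, against 4.15% of all probes). It was above 0, that is larger in TG, for 174 probes with all arrays (median 0.28 log2) and for 67 without WT_IR replicate 2 (median −0.064 log2), where again 0 were called (0.00% of all probes) and 4 had an unadjusted p under 0.05 (2.14%, against 4.12% of all probes). That count was 9 without WT_IR replicate 1 (4.81%, against 5.12% of all probes). It was 5 without WT_IR replicate 3 (2.67%, against 5.47% of all probes). The 2 with the smallest p were again ILMN_1224635, at 1.19 log2 (SE 0.41), and ILMN_2712075, at 1.35 log2 (SE 0.52), each with a limma adjusted p of 0.999. Below 0 stood ILMN_2706269, at −0.48 log2 (SE 0.49), and ILMN_2759365, at −0.46 log2 (SE 0.48). Leaving out WT_IR replicate 2 gave −0.88 log2 (SE 0.35, limma unadjusted p = 0.0254) for ILMN_2706269. For ILMN_2759365 it gave −0.61 log2 (limma unadjusted p = 0.219). On the other side stood ILMN_1224635, at 0.86 log2 (limma unadjusted p = 0.0131), and ILMN_2712075, at 1.09 log2 (limma unadjusted p = 0.0436). The limma adjusted p was 0.9997 for all 4. It was the same for ILMN_2713285, at −0.56 log2 (limma unadjusted p = 0.0198). The median SE of the interaction over the 187 probes was 0.40 log2.

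The raised probes varied together among the injured hearts. Over the 7 I/R arrays without WT_IR replicate 2, the median Pearson's r between 2 raised probes was 0.574 (quartiles 0.297 and 0.774; median Spearman's rho 0.50), and 89.2% of the 17391 pairs were above 0. Among the other 5997 probes of the window, the median r over the same arrays was 0.013, with 50.97% of pairs above 0. With WT_IR replicate 2 included, the median r was 0.880, which rests on that array. Subtracting each genotype's mean first left it at 0.618 over 7 arrays. The I/R medians of these arrays also chose the raised probes, which favours a higher r among them than among the other probes. The points are 7 mice whose RNA is shared by all probes, so these values describe the arrays and carry no test.

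The same probes also varied together, less tightly, among sham hearts, of which the choice of probes used the mean and the medians. Over the 8 sham arrays the median r was 0.325, with 75.8% of pairs above 0, against 0.0024 and 50.2% among the other probes of the window. Without WT_Sham replicate 3, the lowest of these arrays, it was 0.221. On WT_Sham replicate 3, 18 of the 187 were above their sham mean and on TG_Sham replicate 4, 28 were, against 143 on TG_Sham replicate 2 and 145 on WT_Sham replicate 1. The median SD of log2 intensity over the 8 sham arrays was 0.154 for the raised probes and 0.082 for the other probes of the window, and over 7 I/R arrays it was 0.254 and 0.095. Slide moved with this: the raised probes were lower on slide 2 than on slide 1 by a median of 0.089 log2 in sham (difference −0.089, 88.2% of probes) and 0.14 log2 in I/R without WT_IR replicate 2 (difference −0.14, 90.9% of probes). The I/R difference was not balanced by genotype. Of the WT_IR arrays left, replicate 1 was on slide 1 and replicates 3 and 4 on slide 2. The part of slide in the shared variation was not tested.

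The injured hearts differed in the overall size of the rise. The first principal component of the raised probes over the 7 I/R arrays held 52.4% of their variation, with WT_IR replicate 4 at one end and WT_IR replicates 1 and 3 at the other. WT_IR replicate 1 was the highest I/R array for 65 of the raised probes and WT_IR replicate 3 for 61, while TG_IR replicates 1 to 4 were the highest for 28, 26, 5 and 2. The order of the arrays by the mean level of the raised probes was WT_IR replicates 1 and 3, TG_IR replicates 1, 3, 2 and 4, WT_IR replicate 4 and WT_IR replicate 2. For the 65 window probes that met the mirrored rule (I/R median at most 1/1.6 of the sham median in both genotypes, on the same arrays), the mean log2 level was −1.17 on WT_IR replicate 1, −1.096 on WT_IR replicate 3, −0.70 on WT_IR replicate 4 and −0.12 on WT_IR replicate 2. Arrays at either end of the order for raised probes were also at the ends for lowered probes. The same arrays chose both sets, which favours this likeness, so nothing is read from it. On TG_IR arrays it ran from −1.03 (replicate 2) to −0.798 (replicate 4).

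The second component held 18.5% of the variation, and its largest loading was that of TG_IR replicate 2 (−0.85). Across the raised probes, the profile of this array correlated with those of the other 3 TG_IR arrays at r between 0.734 and 0.821, while those 3 correlated with each other at 0.833 to 0.915. WT_IR replicate 3 and TG_IR replicate 1, on different slides, were the closest pair of arrays (r = 0.938 over 187 probes). These are correlations across probes, which are not independent replicates.

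The 2 probes at the centre of the shared variation were picked by their mean r with the other raised probes over these arrays. That choice makes them follow the arrays' mean order, so nothing is read from it. ILMN_2657175, with the highest mean r with the other raised probes (0.688 over 7 I/R arrays), had 7527, 6451, 7017 and 6214 in TG_IR hearts, against 1491, 1744, 1810.3 and 1579.6 in TG_Sham hearts. It had 8552, 1734, 7468 and 5469.8 in WT_IR hearts, against 2114, 1828, 1452 and 1946 in WT_Sham hearts. Apart from WT_IR replicate 2, its I/R arrays lay far above all sham arrays, with WT_IR replicate 4 the lowest. ILMN_1217849 came next (mean r of 0.688 to 3 digits), with ratios of 2.26 in TG and 2.46 in WT. At the other end, ILMN_2712075 and ILMN_1234453 had mean r of −0.209 and −0.074, and 3 of the 187 were below 0. ILMN_1234453 was raised on TG_IR replicates 1 to 4 at 1111, 1005, 1129 and 1362, with replicate 4 the highest, whereas replicate 4 was the lowest TG_IR array in mean level.

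Some raised probes followed each other so closely that they may not be separate measurements. After subtracting group means, over 15 arrays without WT_IR replicate 2, 47 of the 17391 pairs had r above 0.95, and these involved 49 of the 187 probes. The closest pair, named after its values were seen, was ILMN_2757368 and ILMN_2983948 (r = 0.993). ILMN_2757368 had 583, 1364, 637 and 404 in TG_IR hearts, and ILMN_2983948 had 621, 1516, 705 and 460.3. Both were highest on TG_IR replicate 2, at over 2 times each other TG_IR array. The sources used here do not say whether such a pair detects the same gene, so 187 probes may stand for fewer genes.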

How the data were processed

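Cardiac RNA of 16 mice was hybridised to Illumina arrays. Per the labels' protocols, TriReagent RNA was labelled with Illumina's TotalPrep kit. The authors deposited linear probe intensities, without detection p-values, whose medians are nearly equal between arrays. The sources used here name no scanner software, background correction or normalization method.

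Members were chosen on the deposited intensities, by the sham mean (230 to 3500) and the ratio of medians (1.6 in each genotype). The further bound of the rule, 1 sham array above 230, follows from the mean. The members, lists and named-probe rule were chosen with earlier results of these data known. For tests, intensities were background-corrected (normexp, offset 50), log2 transformed and fitted with 4 group means in limma 3.58.1 (R 4.3.3) over all 25697 probes, with Benjamini-Hochberg adjustment and a threshold of 0.05. All adjusted p-values are limma's. The fit was tested on simulated data, drawn independently for each probe and array. That run does not cover an array unlike its group or probes that vary together.

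Probes carry no gene names here, so the planned gene lists and cell type markers could not be used. At most 2 probes per part and direction of the rule are named: largest smaller ratio, highest sham mean, nearest the bound, smallest p in each genotype comparison (none passed), ratio most in favour of a genotype, and highest or lowest mean correlation with the other members. With 4 arrays per group, the number of arrays limits precision. The labels give 1 mouse per array, and p-values measure the spread between these arrays. The alternatives were log2 without background correction, cyclic loess, slide as a block, each slide alone, array weights, bright probes only, the compared groups only, and each array left out. The ratios, overlaps and correlations without WT_IR replicate 2 or WT_Sham replicate 3 were chosen after seeing the data.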

Additional observations from a re-analysis of the deposited data

Results flagged for a closer look

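A gap test asked, for 19 named probes and for the mean level of the raised probes, whether 1 of the 4 arrays in a group lay far outside the rest. Of 80 such tests, 2 were positive, where chance, at about 1 in 20 groups, would give 4. Both were on TG_IR replicate 2. ILMN_2952275 had an intensity of 2082 there, where TG_IR replicates 1, 3 and 4 had 3145 to 3357. ILMN_2710905 had 3392, where those replicates had 7819.7 to 8057. On this array, too, both lay above all TG_Sham arrays. WT_IR replicate 2 was not found by this test, although it was the lowest I/R array for 186 of the 187 probes.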

How the results depend on the processing

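The count of raised probes called between TG_IR and WT_IR, between TG_Sham and WT_Sham, and for the interaction was 0 in limma's fit in every alternative run, with 0 to 0 when each array was left out. The number of probes that met the rule was 309 with a ratio of 1.4, 73 with a ratio of 2, and 439 when the array median was subtracted first, against 187. Leaving out each array gave 123 (without WT_IR replicate 1) to 210 (without WT_IR replicate 2), and 125 without WT_IR replicate 3. The median rise in TG was 1.03 log2 without background correction, against 1.27, and ran from 1.22 to 1.31 when each array was left out, while that in WT ran from 0.82 to 1.33. The median correlation over I/R arrays ran from 0.574 (without WT_IR replicate 2) to 0.918. ILMN_1227951, at −0.0083 log2 between TG_IR and WT_IR, changed sign on slide 1 alone (0.038), without TG_IR replicate 2 (0.13) or 3 (0.012) and without WT_IR replicate 1 (0.14) or 3 (0.17), and was −0.20 without WT_IR replicate 2. The interaction of ILMN_2759365 was 0.029 log2 on slide 2 alone, against −0.46. The causes were not tested. No paired analysis was possible because numbers in the labels are per mouse, with no link between groups. Dim probes are compressed by the background still in the intensities, which limits what small rises can show.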
